A study of Homo sapiens with 12 samples.

Results

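Collagen chain genes are described here in 2 human liver cancer lines, HCC-LM3 and Huh-7, each with and without METTL5. The members are all genes of the expression table whose name has the form COL, a type number, A and a chain number, which gave 44 of 58884 genes. Both come from hepatocellular carcinoma. HCC-LM3 was selected for its capacity to metastasise, and Huh-7 still shows traits of hepatocytes. METTL5 is the enzyme that adds an m6A methyl group to 18S ribosomal RNA. Each line was sequenced as untreated cells of wild-type genotype and as cells infected with a METTL5 guide RNA, of METTL5-KO genotype, with 3 libraries in each of the 4 groups. The labels name no control guide and no clone, so METTL5 loss, the infection and the choice of cells cannot be told apart. They number the replicates without saying that these were separate cultures, so p-values here reflect only how far these libraries differ, which may be technical.

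Collagens are matrix proteins in which 3 chains wind into a triple helix, and many types need products of more than 1 gene in each molecule. Fibrillar types build the fibres of connective tissue, type IV collagen builds the network of basement membranes, and fibril-associated types sit on the fibres. In liver, hepatic stellate cells and other mesenchymal cells are known as the main source of fibrillar collagen, while hepatocytes are known to make type XVIII.

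The 6 type IV genes lie as 3 pairs that start close together and run in opposite directions, and the stretches between their starts are shown because both members of each pair were measured here. They were read from RefSeq promoter sequences on GRCh38.p14, on the plus strand, and 32 of the 44 chains had an entry. Capitals mark a GC box (GGGCGG) or a CCAAT box (CCAAT) on either strand, and a TATA box (TATAAA) was searched in the same way. The first is all 126 bases between the starts of COL4A1 (minus strand) and COL4A2 (plus strand), chr13:110307158-110307283. The second is the 250 bases before the start of COL4A3, chr2:227164374-227164623, out of 418 bases up to the start of COL4A4. The third is the 250 bases before the start of COL4A5, chrX:108439588-108439837, out of 379 bases up to the start of COL4A6.
COL4A1-COL4A2: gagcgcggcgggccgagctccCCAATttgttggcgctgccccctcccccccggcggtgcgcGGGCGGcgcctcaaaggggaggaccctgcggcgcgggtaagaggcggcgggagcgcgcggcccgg
COL4A3: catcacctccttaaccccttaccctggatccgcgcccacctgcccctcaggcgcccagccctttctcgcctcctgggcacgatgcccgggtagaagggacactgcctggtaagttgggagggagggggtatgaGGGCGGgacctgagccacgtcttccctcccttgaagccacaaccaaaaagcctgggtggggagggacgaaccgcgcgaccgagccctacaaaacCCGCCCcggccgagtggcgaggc
COL4A5: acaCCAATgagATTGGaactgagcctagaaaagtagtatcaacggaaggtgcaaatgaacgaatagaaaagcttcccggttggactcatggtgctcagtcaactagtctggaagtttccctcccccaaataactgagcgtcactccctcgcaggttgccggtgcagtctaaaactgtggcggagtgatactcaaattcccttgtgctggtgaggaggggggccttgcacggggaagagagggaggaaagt
The COL4A1-COL4A2 stretch held 1 GC box and 1 CCAAT box and had a GC content of 80.2%. In windows of 126 bases, a GC box was found in 34.6% and a CCAAT box in 21.1% of 35116 promoters. The COL4A3 stretch held 2 GC boxes and no CCAAT box, and the COL4A5 stretch held 2 CCAAT boxes and no GC box. In windows of 250 bases, 42.6% of promoters held a GC box and 32.0% a CCAAT box. No TATA box was found in any of the 3 stretches, against 5.87% of promoters with one at 126 bases and 10.7% at 250 bases.

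Levels of a single chain across libraries are given as CPM, counts scaled to an equal library size after trimmed-mean (TMM) normalization. Levels of different chains are set side by side only as deposited TPM, transcript abundances that allow for gene length and library size. The libraries held 17495280 to 26415554 counts, and none of the 6 knockout libraries had a METTL5 count. TMM scaling factors lay at 1.27 to 1.51 in HCC-LM3, 1.06 to 1.10 in wild-type Huh-7 and 0.491 to 0.51 in its knockout. HCC-LM3 wild-type replicate 1 stood apart from its group, with a median chi-square per gene of 7.08 and 6.09 against the other two and 1.22 between those. Of 10 hepatocyte markers, HNF4A was the 1 gene with at least 1 TPM in HCC-LM3 and ALB stayed at 0.04 TPM or less there, while all 10 exceeded 1 TPM in Huh-7. Their sum was 10800 to 12400 TPM in wild-type Huh-7 and 6300 to 6410 in its knockout. Summed over 10 fibroblast and stellate cell markers, TPM were 6.8 to 9.48 in HCC-LM3, 4.59 to 6.46 in wild-type Huh-7 and 0.95 to 2.16 in its knockout. LRAT, a stellate cell marker, was at 0 in all 4 groups, but other markers of the 10 were not. A mean of at least 1 TPM was reached by 2 in HCC-LM3 (PDGFRB and DES), 3 in wild-type Huh-7 (PDGFRA, PDGFRB and LUM) and 0 in its knockout. PDGFRB was highest, at 4.04 to 5.44 TPM in wild-type HCC-LM3. The part of other cells in the collagen values was not tested, and in such bulk samples fewer cells of a type and less RNA per cell cannot be told apart.

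Of the 44 chains, 28 had counts high enough to be tested, 15 had counts but were not tested, and COL6A5 was at 0 counts in all 12 libraries. A count of 0 allows up to 3 counts in a library. The 15 chains that were counted and not tested were COL6A3, COL6A6, COL8A1, COL8A2, COL9A1, COL10A1, COL11A1, COL13A1, COL19A1, COL20A1, COL21A1, COL22A1, COL23A1, COL24A1 and COL25A1. Their totals over the 12 libraries were 1 to 63 counts, and no library held more than 19. COL6A2, COL11A2 and COL17A1 were tested and stayed under a mean of 1 CPM in every group. A mean of at least 1 CPM was reached by 19 chains in wild-type HCC-LM3 and 18 in its knockout, and by 18 chains in wild-type Huh-7 and 12 in its knockout. Between the wild types, 12 chains reached it in both lines, 7 in HCC-LM3 alone and 6 in Huh-7 alone.

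Collagen genes are long, rich in GC and cut into many exons. The median length in the table was 6454 bases for the 44 chains against 2745 for all tested genes, and 31 chains (70.5%) reached 5000 bases against 19.9% of tested genes. The median GC content was 55.3% for the 44 chains, 60.7% for the 28 tested chains and 49.3% for all tested genes. The median number of exons in the transcript with most was 48 against 8. Length and GC content matter below. Across all genes, the knockout effect moved with GC content in both lines and with length mainly in Huh-7.

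The first comparison asked which chains each wild-type line carried. The lines made different collagen mRNAs. HCC-LM3 held the basement membrane and anchoring fibril chains COL4A1, COL4A2 and COL7A1 together with COL5A1, and Huh-7 held the cartilage chain COL2A1 with COL18A1, COL6A1 and COL5A2. Of 28 chains tested, 24 differed between the wild types by edgeR (adjusted p under 0.05), 13 of them higher in HCC-LM3 and 11 higher in Huh-7. Over all 16537 genes tested, 82.8% differed, with 41.8% higher and 41.0% lower in HCC-LM3, so the share of chains was near that of genes in general. The values of the wild-type libraries did not overlap for any of the 24. Among all genes tested, 41.8% lay wholly higher and 40.8% wholly lower in HCC-LM3.

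**Figure D1:**
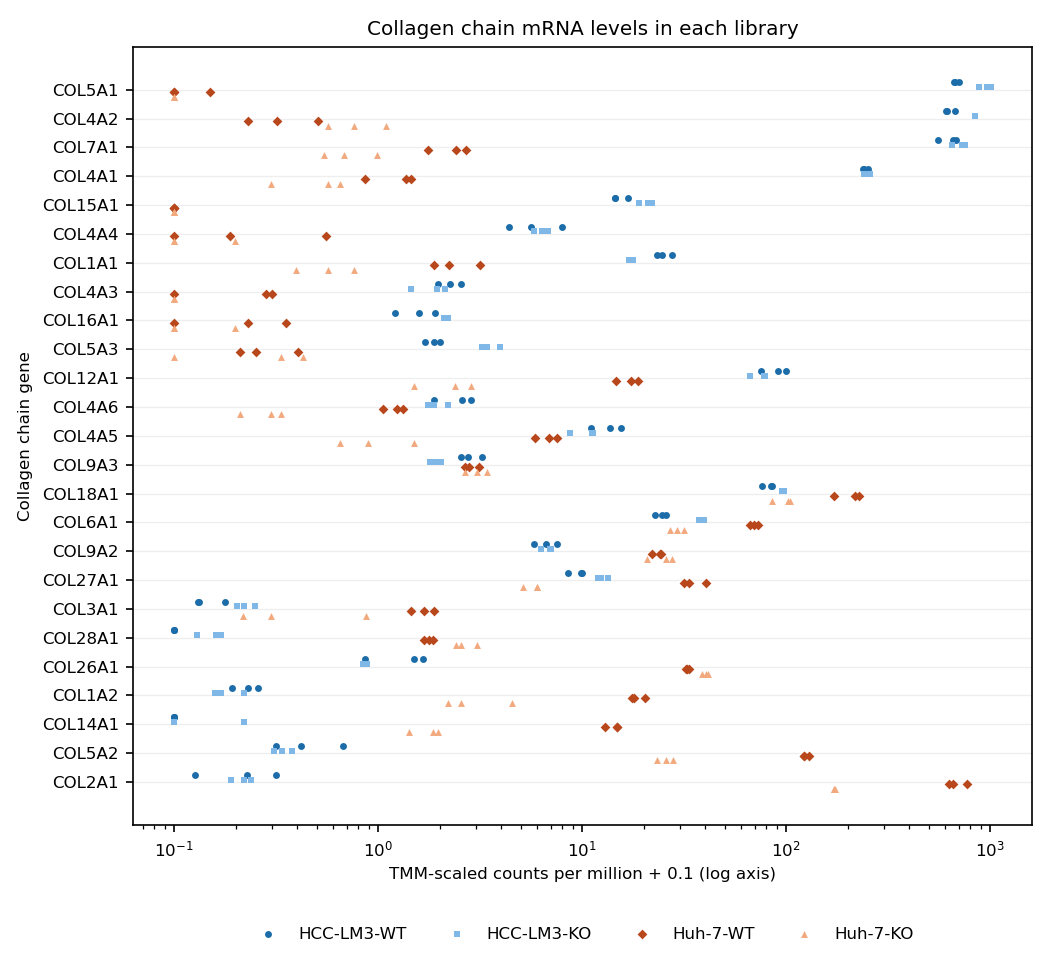
Level of each of the 25 chains that reached a mean of 1 CPM in a group, as TMM-scaled CPM plus 0.1 on a log axis. Each point is a library, with 3 per group, and chains are ordered by the ratio of the wild-type means; COL5A1 and COL4A2 at the top are high in HCC-LM3 and COL2A1 and COL5A2 at the bottom are high in Huh-7.

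Summed over the 44 chains, TPM were 750, 918 and 889 in HCC-LM3 wild type and 276, 270 and 310 in Huh-7 wild type. All 3 HCC-LM3 libraries were above all 3 Huh-7 libraries. In HCC-LM3 the network class held 38.5% of this sum, the anchoring fibril chain COL7A1 33.4% and the fibrillar class 18.4%. In Huh-7 the fibrillar class held 65.7% (64.0% to 68.0% in single libraries), the multiplexin class 15.5% and the beaded filament class 11.5%. Network chains made up 1.06% in Huh-7. Transmembrane collagens held at most 0.0533% in a wild-type library.

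**Figure D2:**
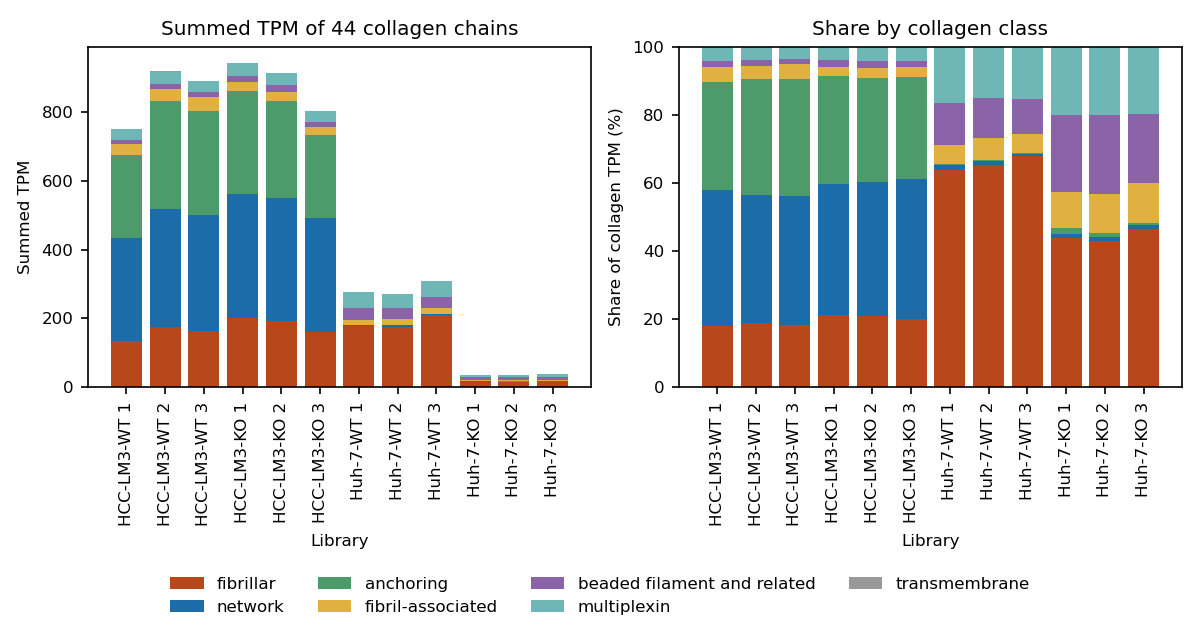
Deposited TPM summed over the 44 chains in each library (left, TPM) and the same as a share of the library's collagen sum (right, %), split by collagen class. The sum is 750 to 942 in HCC-LM3, 270 to 310 in wild-type Huh-7 and 36.5 to 36.8 in its knockout, and fibrillar chains fill most of the Huh-7 wild-type bars.

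Among network and anchoring chains, COL7A1, which forms the fibrils that tie epithelium to the tissue below, measured 553, 676 and 657 CPM in HCC-LM3 wild type and 2.31, 1.66 and 2.58 in Huh-7 wild type. It was 288-fold higher in HCC-LM3 (log2 difference 8.17, SE 0.16, edgeR adjusted p = 1e-30). COL4A2 and COL4A1, the partners of the common basement membrane network, reached 235 and 84.5 TPM in HCC-LM3 against 0.233 and 0.367 TPM in Huh-7. In CPM, COL4A1 was 209-fold higher in HCC-LM3 (log2 7.71, SE 0.15). COL4A2 was 2530-fold higher (log2 11.30, SE 0.19), with 6, 3 and 8 counts in the Huh-7 libraries. The other 4 type IV chains, which form the networks of specialised basement membranes, were also higher in HCC-LM3, at lower levels. COL4A5 measured 10.9, 15.4 and 13.6 CPM in HCC-LM3 against 7.43, 6.74 and 5.77 in Huh-7. Mean levels of COL4A4 and COL4A3 were 5.89 and 2.15 CPM in HCC-LM3, against 0.181 and 0.129 CPM for Huh-7. The paired genes whose start regions are printed above thus differed in 1 direction between the lines, all 6 being higher in HCC-LM3. COL4A1 and COL4A2 overlap by 1422 bases in the annotation on opposite strands, and the strand setting of the counts is not given in the sources used here, so reads from that overlap cannot be assigned.

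Fibrillar chains split between the lines. COL5A1, a chain of type V collagen that sits inside thicker fibrils, held 21011, 26804 and 21892 counts in HCC-LM3 wild type and 0, 0 and 1 in Huh-7 wild type. With 1 count in all on the Huh-7 side, the ratio of the levels was 47500 with a 95% counting interval of 8530 to 1880000. COL1A1 and COL5A3 were higher in HCC-LM3 as well, 10.7-fold and 9.19-fold. COL2A1, the collagen of cartilage, went the other way with 659, 627 and 768 CPM in Huh-7 and 0.127, 0.0261 and 0.214 in HCC-LM3. It held 55.4% of all collagen TPM in Huh-7 wild type and was 5600-fold higher there (log2 -12.45 for HCC-LM3 over Huh-7, SE 0.20, edgeR adjusted p = 2.35e-32). COL5A2 was 323-fold higher and COL1A2 140-fold higher in Huh-7. COL27A1, a fibrillar chain known from cartilage, was 3.73-fold higher in Huh-7, and COL3A1, of the fine reticular fibres, was 29.2-fold higher at a mean of 1.57 CPM.

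The remaining classes were mixed too. COL12A1, which sits on fibril surfaces, was 5.27-fold higher in HCC-LM3. Its relative COL14A1 was at 0 counts in all 3 HCC-LM3 wild-type libraries and measured 14.7, 12.9 and 14.7 CPM in Huh-7, which is at least 159-fold higher against a floor of 3 counts per library. COL15A1, a basement membrane multiplexin, was at 0 in all 6 Huh-7 libraries and at 14.3, 16.7 and 14.4 CPM in HCC-LM3 wild type, at least 115-fold higher against the same floor. COL18A1, the multiplexin that releases endostatin, was 2.51-fold higher in Huh-7, with 218, 171 and 226 CPM against 84.0, 85.1 and 75.9. COL6A1, of the beaded filaments, was 2.87-fold higher in Huh-7, and COL26A1 was 26.6-fold higher there. COL9A2, which decorates type II fibrils, was 3.57-fold higher in Huh-7. COL16A1, another fibril-associated chain, was 12.2-fold higher in HCC-LM3. COL28A1 was at 0 in HCC-LM3 wild type and at least 18.9-fold higher in Huh-7 against that floor. COL9A3 did not pass, at 2.74 ± 0.337 CPM in HCC-LM3 and 2.76 ± 0.238 in Huh-7 (SD, n = 3 each), and neither did COL6A2, COL11A2 and COL17A1.

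Chains that share a molecule were often present without their partner. Type I collagen is usually built from COL1A1 and COL1A2. In HCC-LM3 wild type COL1A1 was at 13.3 TPM and COL1A2 at 0.06, whereas in Huh-7 wild type COL1A2 was at 4.45 TPM and COL1A1 at 0.72. The common form of type V collagen joins COL5A1 and COL5A2. HCC-LM3 held 140 TPM of COL5A1 and 0.12 of COL5A2, and Huh-7 held 18.7 TPM of COL5A2 and 0.00333 of COL5A1. Every wild-type library of each line was on the same side in both pairs. Type VI collagen joins COL6A1 to COL6A2 and another chain such as COL6A3. COL6A1 was at 11.9 TPM in HCC-LM3 and 19.8 in Huh-7, COL6A2 at 0.207 and 0.14 in that order, and COL6A3 at 0.0133 and 0.00333. Type IV partners differed less within HCC-LM3, where the ratio of COL4A2 to COL4A1 was 3.02, 2.59 and 2.77 and COL4A5 exceeded COL4A6 6.87-fold.

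**Figure D3:**
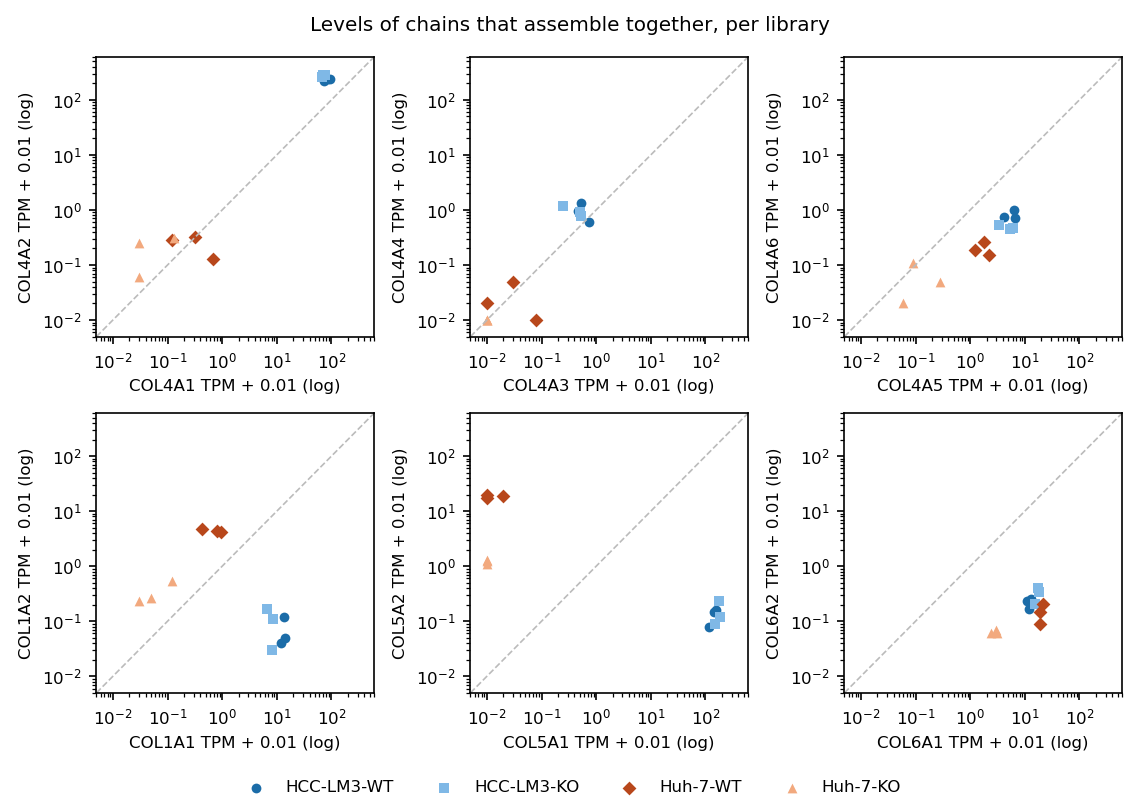
Deposited TPM plus 0.01 of pairs of chains that can assemble into 1 molecule, both axes logarithmic, each point a library and the dashed line marking equal levels. HCC-LM3 lies below the line and Huh-7 above it for COL1A1 with COL1A2 (13.3 and 0.06 TPM against 0.72 and 4.45 in wild type) and for COL5A1 with COL5A2, and all libraries lie below it for COL6A1 with COL6A2.

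The second comparison asked which chains changed with METTL5 knockout in HCC-LM3. Changes were small and went both ways. COL5A1, COL6A1, COL4A2, COL5A3, COL15A1 and COL27A1 were 1.33-fold to 1.95-fold higher in the knockout, and COL1A1, COL9A3 and COL26A1 were 1.45-fold to 1.60-fold lower. Of 28 chains tested, 10 passed the test of edgeR, 7 higher and 3 lower, or 35.7% against a background of 26.8% of all genes tested (14.0% higher and 12.9% lower). The seventh higher chain was COL28A1, with 0 counts in wild type and 5 in knockout, under the floor of 3 per library, so no fold is given. The median log2 fold change was 0.12 over the chains and 0 over all genes. Without knockout replicate 2, 6 chains were called. Scaling by library totals moved the median of all genes to -0.12 and gave 5 higher and 5 lower chains.

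Among the chains that rose, COL6A1 measured 25.5, 24.5 and 22.7 CPM in wild type and 37.3, 39.5 and 37.6 in knockout. The groups did not overlap, and the log2 fold change was 0.65 (SE 0.09, edgeR adjusted p = 6.47e-06). COL5A1 went from 666, 700 and 669 CPM to 1010, 969 and 881, a log2 fold change of 0.49 (SE 0.10, edgeR adjusted p = 0.000393). All 3 knockout libraries were above all wild-type libraries. COL4A2 went from 669, 611 and 606 CPM to 844, 846 and 841, again without overlap (log2 0.42, SE 0.10, edgeR adjusted p = 0.00144). Its partner COL4A1 stayed at 243 ± 7.37 CPM in wild type and 247 ± 9.29 in knockout (SD, n = 3 each), a log2 fold change of 0.03 with adjusted p = 0.896 by edgeR. The TPM ratio of COL4A2 to COL4A1 was 3.66, 3.92 and 3.84 in knockout against 3.02, 2.59 and 2.77 in wild type. These ratios did not overlap, and an exact permutation test of 3 against 3 libraries cannot go below p = 0.1. COL4A2 has a GC content of 62.0% and COL4A1 of 55.4%.

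COL5A3, a less common chain of type V collagen, rose from 1.90, 1.78 and 1.59 CPM to 3.32, 3.86 and 3.14 (log2 0.97, SE 0.25, edgeR adjusted p = 0.00426). COL15A1 rose from 15.1 ± 1.38 to 20.6 ± 1.67 CPM and COL27A1 from 9.37 ± 0.787 to 12.5 ± 0.733 (SD, n = 3 each). Neither overlapped between the groups. Over the tested chains, 10 lay wholly higher and 2 wholly lower in the knockout libraries, against 20.5% and 18.2% of all genes.

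Lower levels were found for a fibrillar and 2 non-fibrillar chains. COL1A1, the main chain of type I collagen, measured 24.5, 27.3 and 23.2 CPM in wild type and 16.8, 17.7 and 17.1 in knockout, without overlap. It fell by 0.54 on the log2 scale (SE 0.13, edgeR adjusted p = 0.00219). COL9A3 fell from 2.74 ± 0.337 to 1.81 ± 0.119 CPM (SD, n = 3 each). COL26A1 fell from 1.39, 0.757 and 1.56 CPM to 0.741, 0.759 and 0.777, and the lowest wild-type library lay within the knockout values.

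Other abundant chains did not pass. COL7A1 measured 629 ± 65.9 CPM in wild type and 708 ± 54.0 in knockout (log2 0.17, SE 0.10), COL12A1 88.4 ± 12.7 and 74.4 ± 6.65 (log2 -0.25, SE 0.11) and COL18A1 81.7 ± 5.01 and 96.3 ± 1.39 (log2 0.24, SE 0.10; SD, n = 3 each). Adjusted p by edgeR was 0.227, 0.0889 and 0.0792. Other tested chains at 1 CPM or more in HCC-LM3 (COL4A3, COL4A4, COL4A5, COL4A6, COL9A2 and COL16A1) lay between log2 -0.38 and 0.48.

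Across all genes the HCC-LM3 knockout effect moved with GC content. Among other genes of at least 5000 bases, the median effect on the log2 scale was 0.34 where GC content was 55% or more (n = 533) and -0.20 where it was under 50% (n = 2258). With offsets for length and GC content, COL6A1 kept 0.38, COL5A1 0.20 and COL1A1 -0.83, all still called, and the split over the chains was 3 higher and 5 lower. Under the same offsets the calls of COL4A2 (log2 0.13), COL5A3 (0.66), COL15A1 (0.27) and COL27A1 (0.11) ended. COL1A1, COL5A1 and COL6A1 kept their call under all 15 alternatives run, whereas COL9A3 and COL26A1 lost it under 7 each, including each omission of a knockout library. COL15A1 lost its call without wild-type replicate 3 or knockout replicate 1, and COL27A1 without knockout replicate 2. Library totals ended both calls as well (log2 0.29 and 0.25). COL12A1 (-0.25) and COL4A5 (-0.47) were called lower with the offsets, and with library totals too (-0.41 and -0.54).

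**Figure D4:**
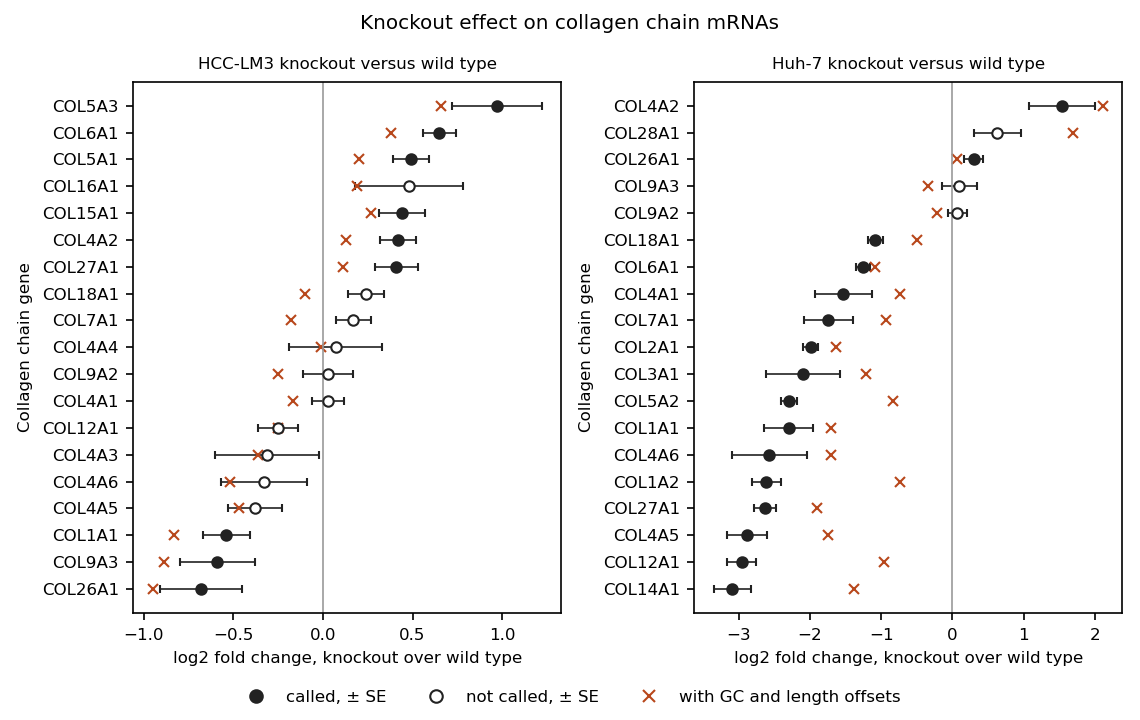
log2 fold change of METTL5 knockout over wild type for chains that were called or reached 1 CPM in the line (HCC-LM3 left, Huh-7 right). Bars are standard errors derived from the edgeR test. Filled points were called, open points were not, and crosses are the values with offsets for length and GC content. In Huh-7 most chains lie below 0 and move towards it with the offsets (COL12A1 from -2.96 to -0.96), and chains with a group at 0 counts are not drawn.

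The third comparison asked the same in Huh-7, where most collagen chains were lower in the knockout. Chains of every class that Huh-7 expressed were among them: the fibrillar COL2A1, COL5A2, COL1A2, COL27A1, COL3A1 and COL1A1, the basement membrane COL4A1, COL4A5 and COL4A6, the fibril-associated COL12A1 and COL14A1, and COL6A1, COL7A1 and COL18A1. Of 28 chains tested, 17 passed the test of edgeR, 2 higher and 15 lower, or 60.7% against a background of 75.0% of all genes tested (31.7% higher and 43.2% lower). The share called was thus not above that of genes in general. The median log2 fold change was -1.65 over the chains and -0.30 over all genes. The knockout libraries lay wholly above wild type for 3 chains and wholly below for 14, against 32.3% and 44.2% of all genes.

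COL2A1 measured 659, 627 and 768 CPM in wild type and 174, 171 and 171 in knockout. The groups were far apart, and COL2A1 fell by 1.99 on the log2 scale (SE 0.11, edgeR adjusted p = 1.09e-17), which is 3.98-fold. It remained the highest collagen chain by TPM in the knockout, at 14.3 TPM and 39.0% of the collagen sum, against 158 TPM and 55.4% in wild type. TPM carry no TMM factor, so the falls in TPM and in CPM are not on the same scale. COL5A2 measured 122, 122 and 129 CPM in wild type and 23.1, 25.6 and 27.7 in knockout, 4.88-fold lower (log2 -2.29, SE 0.11, edgeR adjusted p = 2.47e-18). COL27A1 dropped from 31.6, 33.3 and 40.2 CPM to 5.92, 5.01 and 5.93, 6.20-fold lower. COL1A2 dropped from 17.9, 17.5 and 20.2 CPM to 4.44, 2.45 and 2.09, and no library of 1 group reached the other group for any of these chains. COL1A1 and COL3A1, at 2.32 and 1.57 CPM in wild type, were 4.94-fold and 4.29-fold lower, on 13 and 10 counts in the knockout group.

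Fibril-associated chains were among the larger decreases. COL14A1 measured 14.7, 12.9 and 14.7 CPM in wild type and 1.87, 1.75 and 1.32 in knockout (log2 -3.09, SE 0.26, edgeR adjusted p = 3.1e-12). COL12A1 measured 14.6, 17.2 and 18.7 CPM and then 2.27, 1.40 and 2.75 (log2 -2.96, SE 0.20, edgeR adjusted p = 8.83e-15). Both were without overlap. COL9A2 and COL9A3, the type IX chains, are shorter genes (2852 and 2497 bases) and did not pass, but their calls rested on the scaling. COL9A2 was at 23.3 ± 1.22 CPM in wild type and 24.6 ± 3.43 in knockout, and COL9A3 at 2.76 ± 0.238 and 2.94 ± 0.367 (SD, n = 3 each). With DESeq2 size factors both were called higher (log2 0.51 and 0.53), and with library totals both were called lower (log2 -1.04 and -1.01).

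COL18A1 measured 218, 171 and 226 CPM in wild type and 85.5, 104 and 102 in knockout, without overlap. It fell by 1.08 on the log2 scale (SE 0.10, edgeR adjusted p = 2.96e-11). COL6A1 measured 69.4, 66.7 and 72.8 CPM and then 31.4, 29.2 and 26.7, a fall by 1.25 on the log2 scale (SE 0.10, edgeR adjusted p = 2.89e-13). COL4A5 was 7.38-fold, COL4A6 5.95-fold, COL4A1 2.89-fold and COL7A1 3.35-fold lower in knockout. COL4A6 rested on 5 counts in the knockout group and COL4A1 on 11.

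The called increases were COL26A1 and COL4A2. COL26A1, a short chain gene of 2978 bases, measured 32.0, 32.5 and 33.2 CPM in wild type and 40.2, 41.1 and 38.7 in knockout (log2 0.30, SE 0.13, edgeR adjusted p = 0.0335). The groups did not overlap, but with library totals in place of TMM factors the value was -0.81, and 7 other alternatives ended the call. COL4A2 went from 0.252 ± 0.140 to 0.704 ± 0.263 CPM (SD, n = 3 each), on 17 counts in wild type and 20 in knockout (log2 1.54, SE 0.47, edgeR adjusted p = 0.00365). Its call ended with library totals (log2 0.44) and without knockout replicate 1. COL28A1 measured 1.76, 1.58 and 1.67 CPM in wild type and 2.96, 2.45 and 2.31 in knockout without passing (edgeR adjusted p = 0.0904). It passed with the offsets for GC content and length described next (log2 1.70). DESeq2 size factors, the DESeq2 Wald test, limma-voom and the libraries of this line alone also called it higher. Library totals gave -0.48, not called, and its mean TPM fell from 1.29 to 0.78. The fifteenth lower chain, COL4A3, was at 9 counts in wild type and 0 in knockout, under the floor of 3 per library, so no fold is given. Its call ended under 9 of 14 alternatives, among them DESeq2 size factors, limma-voom and the offsets.

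Gene length moved with the knockout effect across all Huh-7 genes. The median effect on the log2 scale was 1.42 for tested genes under 1000 bases and -1.94 for those of 5000 bases or more, with 78.1% of them lower (n = 3284). Among other genes of at least 5000 bases, the median was -0.97 at a GC content of 55% or more (n = 533) and -2.18 under 50% (n = 2258). COL2A1 (5059 bases, 62.3% GC), COL27A1 (7813 bases, 61.3%) and COL1A1 (6727 bases, 61.1%), at -1.99, -2.63 and -2.30, lay below the median of long genes rich in GC, and COL7A1 (-1.74) and COL4A1 (-1.53) did too. COL11A2 (-0.19), COL5A3 (-0.05), COL17A1 (-0.25) and COL4A2 (1.54) lay above it, all 4 under 1 CPM in both Huh-7 groups. In all, 8 of the 12 chains with that length and GC content and with counts in Huh-7 lay below it. Among those 8, COL5A1 had 1 count in wild type and 0 in knockout, and COL16A1 had 8 and 1. COL18A1 (6586 bases, 67.2%), also among the 8, lay near that median at -1.08. COL12A1 (11725 bases, 46.3%) and COL14A1 (8009 bases, 46.7%) lay below the median of long genes poor in GC, as did 5 of 6 such chains. Of these 6, COL4A3 below it had 9 counts in wild type and 0 in knockout, and COL4A4 above it 11 and 1. Without regard to GC content, the median of other genes of at least 5000 bases was -1.93. The -1.65 of the tested chains is not matched to it in length, since it includes shorter genes such as COL9A2 and COL26A1. With offsets for GC content and length, 15 chains were called, 13 of them lower. COL2A1 then stood at -1.64, COL27A1 at -1.90, COL6A1 at -1.09, COL14A1 at -1.38, COL12A1 at -0.96, COL5A2 at -0.83, COL1A2 at -0.74 and COL18A1 at -0.50, all still called. The call of COL4A1 ended at -0.74 (edgeR adjusted p = 0.129). The part of length and GC content in the collagen decrease was not tested beyond these offsets.

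**Figure D5:**
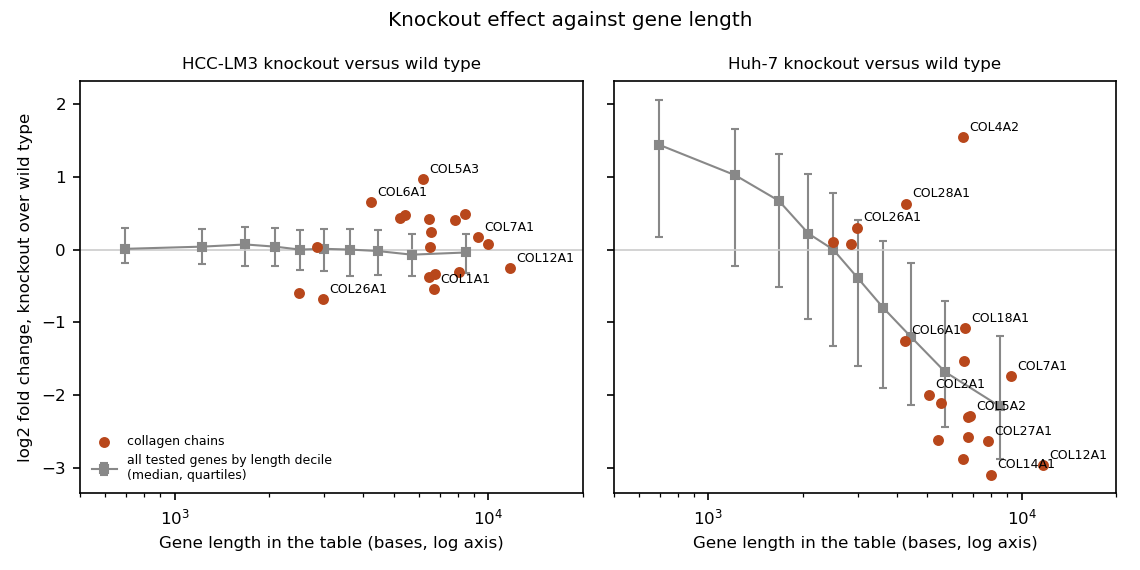
Gene length in the table (bases, log axis) against the log2 fold change of METTL5 knockout over wild type in HCC-LM3 (left) and Huh-7 (right). Grey squares are medians of all tested genes in 10 length classes of equal size with their quartiles, running from 1.44 to -2.15 in Huh-7, and orange points are collagen chains, most of which lie at the long end where the medians are below 0.

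Scaling set the overall level in this comparison. The median over all genes was -0.30 with TMM factors, 0 with DESeq2 size factors and -1.40 with library totals, and the chain medians were -1.65, -1.24 and -2.55. The split of called chains was 2 higher and 15 lower with TMM factors, 5 and 14 with DESeq2 size factors, and 0 and 19 with library totals. Deposited TPM carry no TMM factor but add up to nearly the same total in every library. Like library totals, they are therefore not free of this dependence on scaling. Summed over all chains, they were 36.7, 36.5 and 36.8 in the knockout against 276, 270 and 310 in wild type. By class, the fibrillar share of this sum was 44.4% in knockout and 65.7% in wild type, and the beaded filament share 22.1% and 11.5%. COL26A1 alone held 12.1% of the knockout sum against 3.99% in wild type. Its TPM nevertheless fell, from 10.9, 11.6 and 11.7 in wild type to 4.43, 4.45 and 4.41 in knockout. COL4A2, the other called increase, was at a mean of 0.233 TPM in wild type and 0.197 in knockout.

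Whether the knockout effect differed between the lines was tested as an interaction. It differed for 17 of 28 chains by edgeR, with the HCC-LM3 effect above the Huh-7 effect in 15 and below it in 2 (COL26A1 and COL4A2), against 61.6% of all genes tested (37.7% above and 23.9% below). COL6A1 rose in 1 line and fell in the other, and the difference of its effects was 1.91 (SE 0.14, edgeR adjusted p = 8.55e-14). COL27A1 was also higher in the HCC-LM3 knockout and lower in the Huh-7 knockout, with a difference of 3.05 (SE 0.19, edgeR adjusted p = 6.33e-15). COL1A1 was lower in the knockouts of both lines, and its effects differed by 1.77 (SE 0.39). With offsets for GC content and length, 9 chains still differed, among them COL6A1 (1.47), COL27A1 (2.01), COL12A1 (0.71) and COL18A1 (0.40). The calls for COL1A1 (0.88) and COL2A1 (1.34) ended.

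Genes that process collagen were counted from 6 lists. The breakdown list also holds protease inhibitors such as TIMP4, so its counts mix both. In the HCC-LM3 knockout, modification and folding genes had 9 higher and 2 lower of 18 tested, at a median log2 fold change of 0.32. P3H4 and COLGALT1, which takes part in attaching sugars to collagen, were higher (log2 0.61 and 0.58), as were the collagen chaperone SERPINH1 (0.36) and the prolyl hydroxylase subunit P4HA2 (0.44). FKBP14, a folding enzyme, fell by 1.04 on the log2 scale. Among 15 cleavage and cross-linking genes tested, 6 were higher. LOXL2, a lysyl oxidase that cross-links collagen, went from 311 ± 10.2 to 522 ± 20.2 CPM and BMP1, which cuts procollagen ends, from 88.0 ± 5.01 to 137 ± 5.13 (SD, n = 3 each). Among 14 breakdown genes tested, 5 were higher, including the protease inhibitors TIMP3 (log2 0.72) and TIMP4 (0.78). Export genes had 1 higher and 4 lower of 13 tested. The coat protein SEC31A fell by 0.53 and KLHL12 by 0.44, both parts of the route for large cargo out of the endoplasmic reticulum. Receptors had 2 higher and 3 lower of 7 tested, with MRC2, an uptake receptor for collagen, at 0.67 and the collagen-binding integrin subunit ITGA2 at -0.95. Regulators, which include repressors of TGF-beta signalling such as SKI, had 6 higher and 1 lower of 19 tested. TGFB1, a growth factor that drives collagen synthesis, went from 112 ± 16.0 to 180 ± 1.34 CPM (SD, n = 3 each). KLF2 rose by 1.79 on the log2 scale, from a wild-type mean of 0.372 CPM. The lower gene was the TGF-beta receptor TGFBR1 (-0.42), whose call ended with offsets for GC content and length (-0.14). The background share of genes called in this comparison, 26.8%, applies to these counts as well. With library totals, export had 1 higher and 7 lower, and cleavage and cross-linking had 2 of each. With offsets for GC content and length, 4 regulators and 3 receptors were called. Without wild-type replicate 3, 2 cleavage and cross-linking genes were called, and 3 without wild-type replicate 2 or knockout replicate 3. Without wild-type replicate 2 or knockout replicate 3, 3 export genes were called.

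In the Huh-7 knockout, the lists are read against the 75.0% of genes called. Modification and folding genes had 9 higher and 4 lower of 18 tested. PPIB, a prolyl isomerase that acts on collagen, went from 503 ± 27.9 to 1780 ± 45.9 CPM (log2 1.82), whereas the lysyl hydroxylase PLOD2 and the prolyl hydroxylase subunit P4HA1 fell by 2.52 and 1.77. Export genes had 2 higher and 10 lower of 13 tested, and MIA3, which loads bulky collagen into transport carriers, went from 27.3 ± 2.81 to 3.72 ± 0.75 CPM (log2 -2.87; SD, n = 3 each). Receptors had 1 higher and 5 lower of 7 tested, with the integrin subunit ITGB1 at log2 -1.96. Cleavage and cross-linking genes had 3 higher and 5 lower of 15 tested, the cross-linking enzyme LOX among the lower at -1.32. Breakdown genes and inhibitors had 6 of each direction among 14 tested, with the collagenase MMP14 at -1.04 and the inhibitor TIMP4 at 1.83. Regulators had 4 higher and 12 lower of 19 tested, with SKI, a repressor of TGF-beta signalling, at -2.67 and LARP6, which binds type I collagen mRNA, at 1.75. The splits rested on the scaling. With library totals in place of TMM factors, the modification list had 1 higher and 16 lower, export 0 and 12, cleavage and cross-linking 0 and 10, receptors 1 and 6, breakdown 2 and 10 and regulators 1 and 17, while PPIB stayed higher at 0.71. With DESeq2 size factors they were 12 and 4, 3 and 8, 6 and 2, 2 and 4, 6 and 4, and 6 and 10 in the same order. With offsets for GC content and length, receptors had 2 higher and 1 lower, cleavage and cross-linking 5 and 4, and regulators 8 and 5. ITGB1 then stood at -0.35, MIA3 at -0.62, PLOD2 at -0.83, P4HA1 at -0.57 and LOX at -0.68, and among the higher genes PPIB at 0.82, TIMP4 at 0.90 and LARP6 at 2.66.

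Between the wild types, where 82.8% of all genes differed, the lists went both ways. Modification and folding had 9 genes higher in HCC-LM3 and 6 higher in Huh-7, export 5 and 5, cleavage and cross-linking 8 and 6, receptors 4 and 1, breakdown 6 and 7 and regulators 9 and 9. With library totals, modification and folding had 12 and 4, export 8 and 4, receptors 5 and 0 and regulators 10 and 5. PXDN, the peroxidase that cross-links type IV collagen, was at 336 ± 20.9 CPM in HCC-LM3 and at 0 counts in the Huh-7 wild-type libraries. The uptake receptor MRC2 was at 23.6 ± 1.23 CPM in HCC-LM3 and likewise at 0 in Huh-7. P4HA1 was higher in HCC-LM3 (68.8 ± 10.3 against 6.65 ± 1.00 CPM), and so was TIMP1 (221 ± 29.1 against 3.19 ± 0.503). In Huh-7, MMP14 was at 108 ± 1.83 CPM against 0.208 ± 0.0957 in HCC-LM3, and LOXL4 was at 45.8 ± 4.48 against 1.16 ± 0.328. The prolyl 3-hydroxylase P3H3 was at 10.7 ± 1.12 CPM in Huh-7 and 0.0087 ± 0.0151 in HCC-LM3 (SD, n = 3 each for all these values).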

How the data were processed

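RNA sequencing libraries of total RNA extracted with TRIzol were sequenced on an Illumina NovaSeq, per the labels' protocols. The authors deposited 1 table with an expected count, a TPM value and a length for each of 58884 Ensembl genes. The deposited expected counts are not normalized, and 7.49% to 13.3% of a library's values are not whole. The deposited TPM values, scaled for length by the authors, sum to 977632 to 998831 per library. The submitters' processing notes list Bowtie 0.12.2 with 2 builds of the mouse genome, mm8 and mm9, which do not go with human identifiers. For the counting tool, its strand setting and the build used for human reads, the entry is: not given in the sources used here. The handling of reads shared by genes is unknown, so overlapping genes are uncertain.

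Expected counts were rounded and tested with edgeR 4.0.16 (R 4.3.3) in 1 robust quasi-likelihood fit over all 12 libraries, with TMM factors, filterByExpr by group (16537 genes kept) and 8 residual degrees of freedom. Tests were two-sided, and the threshold was a p under 0.05 after Benjamini-Hochberg adjustment across the whole tested table. Standard errors (SE) are the absolute log2 fold change divided by the square root of the F statistic of the test. They are approximate where counts are few. The fit was also run on simulated counts, in which few genes changed and no trend with length or GC content was built in. That run cannot speak to the scaling of the Huh-7 comparison. Folds against a group at 0 are bounds against a floor of 3 counts per library, and floors and counting intervals cover counting error only. Library depth limits chains with few counts. Loci, exons and GC content came from GENCODE 29 on GRCh38, which held 99.54% of the identifiers. No pair of replicates agreed within sampling noise (mean chi-square per gene 3.13 to 38.6). Alternatives were DESeq2 size factors, library totals, the DESeq2 1.42.0 Wald test, limma-voom (limma 3.58.1), 2 other filters, offsets for GC content and length, a replicate block, fits of fewer groups and each library left out.

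The members, the 6 lists and the marker sets were chosen with earlier results of these data known. Chains with a mean of at least 1 CPM in a group were named with values. From each list, comparison and direction the 2 largest called changes at 1 CPM or more were eligible, besides 8 genes named regardless of value, and not all are printed.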

Additional observations from a re-analysis of the deposited data

Results flagged for a closer look

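The knockout effect differed between the lines by the edgeR interaction test for 17 of 28 chains (60.7%), near the 61.6% of all genes tested, and is given here on the log2 scale as the effect in HCC-LM3 less that in Huh-7. Chains with at least 1 CPM in wild types of both lines were COL27A1 (3.05), COL12A1 (2.71), COL4A5 (2.51), COL4A6 (2.24), COL7A1 (1.92), COL6A1 (1.91), COL1A1 (1.77), COL4A1 (1.56), COL18A1 (1.31) and COL26A1 (-0.97). With offsets for GC content and length, the calls of COL4A6 (1.19), COL7A1 (0.75), COL1A1 (0.88) and COL4A1 (0.56) ended. With library totals the call of COL26A1 ended at -0.02.

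For the other chains 1 line held few counts, so the difference rests mainly on the other line. These were COL14A1 (6.29, lost without HCC-LM3 knockout replicate 3, the 1 HCC-LM3 library with counts of it), COL3A1 (3.38), COL28A1 (2.87), COL1A2 (2.03), COL2A1 (1.96), COL5A2 (1.64) and COL4A2 (-1.12). COL28A1 lost its call under 15 alternatives, COL4A2 under 6, COL1A2 under 3 and COL2A1 under 2. With the offsets COL5A2 stood at 0.17 and COL1A2 at 0.38, both no longer called.

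Among collagen-processing genes, the effect differed for the receptor subunit ITGA2 by 1.48 (SE 0.35, edgeR adjusted p = 0.000473), which was lower in both knockouts. With offsets for GC content and length the difference was -0.53 (edgeR adjusted p = 0.198), the effects being -0.69 in HCC-LM3 and -0.17 in Huh-7, and the Huh-7 call ended (adjusted p = 0.637 by edgeR). It differed for the protease inhibitor TIMP4 by -1.05 (SE 0.18, edgeR adjusted p = 6.59e-06), which was higher in both. That call ended with the offsets (-0.23, edgeR adjusted p = 0.202) and with library totals (-0.09, edgeR adjusted p = 0.682).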

How the results depend on the processing

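Depth limits the chains with few counts, such as COL4A2 in Huh-7 and COL28A1 in HCC-LM3, and the absence of a control guide limits every knockout comparison. The count of called chains stayed at 15 to 19 in Huh-7 and 24 to 32 between the wild types (32 without a filter on low counts). In HCC-LM3 it was 6 to 9 with 1 library left out, the lowest without knockout replicate 2. For the difference of effects it was 15 to 18 with 1 library left out and 9 with offsets for GC content and length, against 17. The interaction split was 15 higher and 2 lower with TMM factors and 18 and 0 with library totals. The Huh-7 split was 4 higher and 14 lower by limma-voom and 5 and 14 by the DESeq2 Wald test.

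Deviations of same-numbered libraries from their group means correlated at -0.11 to 0.08, and those of other pairs at -0.14 to 0.18. With 3 libraries per group, this cannot show whether same-numbered libraries were prepared together. With the replicate block, 8 chains were called in HCC-LM3, 17 in Huh-7, 16 for the difference of effects and 24 between the wild types.

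Direction turned for chains near 0 and also for larger effects. With TMM factors, the difference of effects had been 2.43 for COL5A1, which was not called, and 1.48 for ITGA2. COL15A1 was at 0 counts in every Huh-7 library and COL5A1 held 1 count in that line. The sign of the difference of effects thus cannot be read for these chains. In HCC-LM3, library totals gave COL4A4 -0.09, COL4A1 -0.13 and COL9A2 -0.12, and the offsets gave COL4A4 -0.01, COL4A1 -0.17, COL18A1 -0.10, COL7A1 -0.18 and COL9A2 -0.25. With a library left out, COL4A4 ranged from -0.12 to 0.33, COL4A1 from -0.02 to 0.04 and COL9A2 from -0.07 upwards. In Huh-7, library totals gave COL9A3 -1.01, COL26A1 -0.81, COL28A1 -0.48, COL9A2 -1.04, CRTAP -0.20, SEC13 -0.11, KDELR2 -0.25, LOXL4 -0.51, BMP1 -0.65 and CEBPB -0.07. With TMM factors, CRTAP (0.91), KDELR2 (0.86), LOXL4 (0.60), BMP1 (0.46) and COL26A1 (0.30) had been called higher. With library totals these were called lower. SEC13 and CEBPB (1.05), also called higher with TMM factors, lost their call. Without a filter COL9A3 was -0.02 and COL9A2 -0.05, with the offsets COL9A3 was -0.34, COL9A2 -0.22 and MEP1A 0.18, and with a library left out COL9A2 ranged from -0.01 to 0.19. For the difference of effects, library totals gave COL9A3 0.27 and COL9A2 0.91, the DESeq2 Wald test COL5A1 -0.28 and COL15A1 -1.29, limma-voom COL5A1 -0.30 and COL15A1 -0.88, no filter COL9A2 0.07, the offsets ITGA2 -0.53, and without Huh-7 knockout replicate 2 COL9A2 was 0.03. Between the wild types COL9A3 was 0.41 with library totals, 0.08 without a filter, 0.49 with the offsets, 0.02 with wild-type libraries alone, and -0.06 to 0.12 with a library left out. The cause was not tested.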
